A study of Mus musculus with 32 samples.

Results

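The genes described here are 44 protein-coding genes of the G2 phase and mitosis, chosen by name from the 21886 rows of a table of raw gene counts. All 44 were in the table under the symbols searched, and all 44 passed the filter on low values, among 11772 tested genes. The libraries came from mouse presomitic mesoderm (PSM), the tissue that is cut into somites in the embryo, made in culture from epiblast stem cells whose genome holds a luciferase reporter for Hes7, a gene of the segmentation clock. 2 sets of dishes were followed, labelled Ex5 (16 libraries, 165 to 425 min) and Ex4 (16 libraries, 155 to 405 min), with 1 dish frozen for each library.

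Both sets shared every agent. The parent line AES0204 was kept with Activin A, bFGF and IWR-1-endo, plated overnight without IWR-1-endo, and then given SB431542 (10 µM), LDN193189 (250 nM) and bFGF (20 ng/ml) with CHIR99021, at 10 µM for the first 30 hours and at 1 µM afterwards. No untreated or undifferentiated culture is among the libraries, and nothing in the labels says what separates Ex5 from Ex4 beyond the experiment name. Each time point is 1 library per experiment, so every error below measures the scatter of libraries around a fitted time course. A difference in level between Ex5 and Ex4 cannot be told apart from a difference in culture or handling between the 2 sets.

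Genes of this group are switched off in the first part of the cell cycle and are transcribed late, so that their mRNA is abundant in cells in G2 and mitosis and scarce in cells in G1. The DREAM complex holds them off through a promoter element called the cell cycle genes homology region (CHR), and the B-Myb-MuvB complex with FOXM1 turns them on through the same element. NF-Y, bound to CCAAT boxes nearby, is the usual activator of these promoters. In a growing culture whose cells are not in step, the summed level of these mRNAs can follow the share of cells in late cycle, and in bulk RNA more cells in that phase and more RNA per cell cannot be told apart.

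The promoter sequences carry the feature by which the group is known and are shown for the first 4 of the named genes that hold both elements. Each runs from 250 bases before to 50 bases after the RefSeq start site on the strand of the gene (RefSeq, build GRCm38.p6), 300 bases in all. Cdk1, the kinase that drives mitotic entry, lies at chr10:69352863-69353162 on the minus strand. Plk1, polo-like kinase, lies at chr7:122159185-122159484 on the plus strand. Aurka, the centrosomal Aurora kinase, lies at chr2:172370521-172370820 on the minus strand. Cdc20, the activator of the anaphase-promoting complex, lies at chr4:118437294-118437593 on the minus strand. Capitals mark every match to TTTGAA, the core of the CHR, and to CCAAT, the NF-Y box, read on either strand (a CCAAT on the opposite strand reads ATTGG, and a TTTGAA on the opposite strand reads TTCAAA).
Cdk1: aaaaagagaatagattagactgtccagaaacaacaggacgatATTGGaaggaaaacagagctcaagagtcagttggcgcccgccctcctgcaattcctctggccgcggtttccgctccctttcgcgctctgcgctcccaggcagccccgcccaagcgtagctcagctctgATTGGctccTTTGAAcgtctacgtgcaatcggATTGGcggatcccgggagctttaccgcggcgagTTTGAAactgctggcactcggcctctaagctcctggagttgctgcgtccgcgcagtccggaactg
Plk1: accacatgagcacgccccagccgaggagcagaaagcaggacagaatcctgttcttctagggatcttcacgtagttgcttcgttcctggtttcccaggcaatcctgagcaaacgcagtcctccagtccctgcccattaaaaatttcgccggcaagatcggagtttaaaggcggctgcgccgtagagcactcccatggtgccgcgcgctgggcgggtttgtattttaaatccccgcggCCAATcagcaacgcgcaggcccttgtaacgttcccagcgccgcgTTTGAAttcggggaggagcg
Aurka: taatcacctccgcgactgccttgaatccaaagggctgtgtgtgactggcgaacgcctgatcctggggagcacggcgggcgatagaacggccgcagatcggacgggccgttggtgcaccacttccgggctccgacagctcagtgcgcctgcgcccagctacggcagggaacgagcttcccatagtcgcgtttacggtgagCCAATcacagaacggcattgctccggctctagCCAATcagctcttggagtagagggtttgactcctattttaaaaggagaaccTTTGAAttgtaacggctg
Cdc20: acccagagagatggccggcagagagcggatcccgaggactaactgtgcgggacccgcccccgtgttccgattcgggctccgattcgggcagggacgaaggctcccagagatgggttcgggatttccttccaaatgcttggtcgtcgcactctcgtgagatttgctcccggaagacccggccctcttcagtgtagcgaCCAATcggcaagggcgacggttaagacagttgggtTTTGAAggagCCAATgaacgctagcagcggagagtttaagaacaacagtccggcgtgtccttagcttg

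RefSeq promoters were matched by symbol for 37 of the 44 genes, and where the table lists several promoters for a gene the first was read. TTTGAA was found in 27 of the 37 (73.0%), against 11.4% of the promoters of 9327 tested genes and 18.1% of those of all 27025 genes in the table. CCAAT was found in 30 of the 37 (81.1%), against 39.4% of promoters of tested genes. Both were found in 24 (64.9%), against 4.96% of promoters of tested genes. The matches to TTTGAA sat close to the start site: 25 of 34 (73.5%) began within 50 bases of it, against 23.9% of such matches in promoters of tested genes. The matches to CCAAT lay further upstream, with a median first base at position -68, against -85 in promoters of tested genes. In a list of 45 genes of G1 and S phase, which are known to be controlled by E2F, TTTGAA was found in 13.9% of 36 promoters and both elements in 5.56%. In a wider list of mitosis genes TTTGAA was found in 38.7% of 106 promoters and both elements in 27.4%. A match is a description of these letters and not a bound site, and a promoter without a match may hold a variant of the element.

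**Figure D1:**
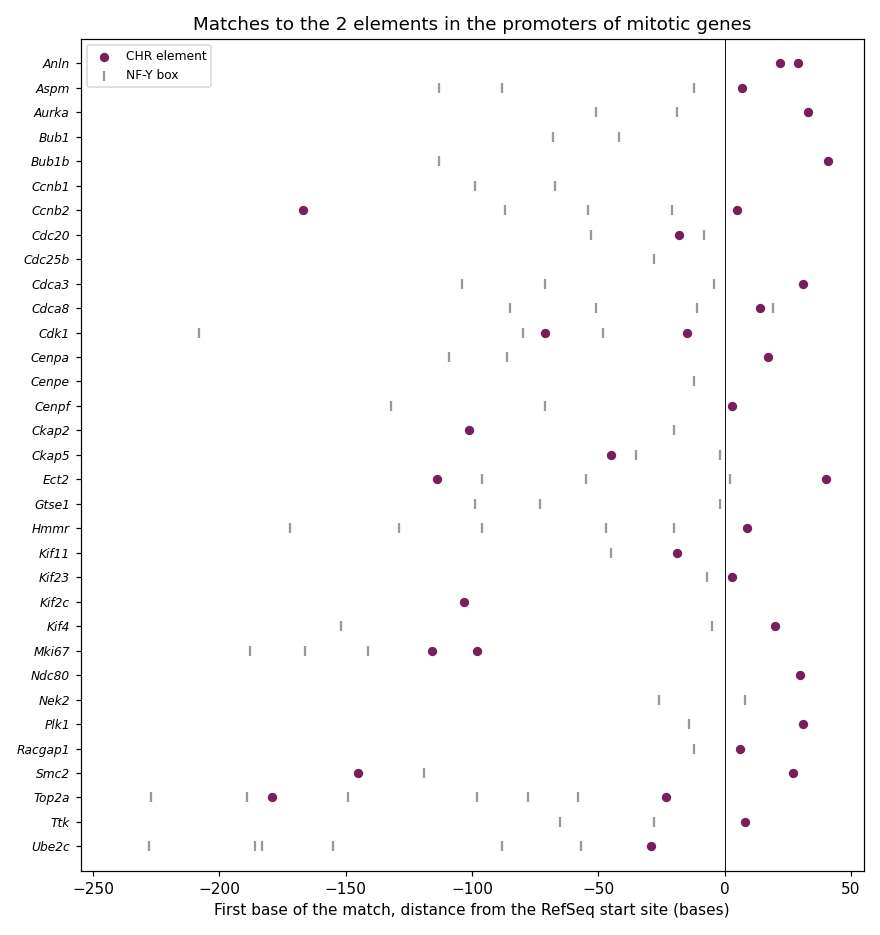
Position of the matches to the 2 promoter elements in the 33 matched promoters that hold at least 1 of them. The x axis is the distance in bases from the RefSeq start site, purple points are the first base of a TTTGAA match (CHR element) and grey ticks that of a CCAAT match (NF-Y box). Most purple points stand within 50 bases of the start site, with the grey ticks mostly to their left.

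In every library the group was expressed. Values are CPM, counts brought to a common total over the tested genes by the TMM method, and levels are compared between genes only after division by the length of a gene's exons (GENCODE M21, GRCm38). The sum over the 44 genes lay between 7810 and 8476 CPM in Ex5 (median 8214) and between 8099 and 8864 CPM in Ex4 (median 8615), and the 2 ranges overlapped. Per kb of exons, Cdc20 had the highest mean level (179 CPM per kb) and Plk1 the next (133 CPM per kb). Cdc25b, a phosphatase that activates Cdk1 at the G2 to M transition, had the lowest level (2.13 CPM per kb). The mean count of Cdc25b per library was 152 in Ex5 and 206 in Ex4, the lowest of the group in each. Within the group the ratio of the highest to the lowest library was 1.30 at the median, with a range of 1.15 (Ccnb2, cyclin B2) to 2.92 (Cdc25b).

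Total counts per library were 16132024 to 28586704 in Ex5 and 19257945 to 29528175 in Ex4. All 12 PSM markers looked for, among them T, Tbx6, Msgn1 and Dll1, had a mean over 1 CPM, and their sum was 3839 to 4518 CPM in Ex5 and 3194 to 3929 CPM in Ex4. The 5 epiblast markers summed to 45.6 to 134 CPM in Ex5 and 76.0 to 183 CPM in Ex4, mostly Pou5f1 and Cdh1, with Nanog, Fgf5 and Otx2 under 1 CPM in all libraries. Over the hours in which the G2/M genes were followed, both fell steeply, Pou5f1 by 0.54 and Cdh1 by 0.59 on the log2 scale per 100 min (mean of the Ex5 and Ex4 slopes, edgeR quasi-likelihood test, adjusted p = 3.30e-20 for Pou5f1 and 7.82e-23 for Cdh1). The 4 neural markers summed to 22.2 to 29.0 CPM in Ex5 and 36.7 to 47.3 CPM in Ex4, with Olig3 at or near 0. Endoderm markers stayed at or under 1.71 CPM in sum and lateral mesoderm markers at or under 4.77 CPM. The 3 fibroblast markers summed to 31.7 to 59.6 CPM in Ex5 and 30.5 to 48.9 CPM in Ex4, nearly all of it Col1a2. By the test used for Pou5f1 and Cdh1, 4 of the 12 PSM markers rose and 5 fell. Of the 3 tested neural markers 1 rose and 1 fell. Both tested fibroblast markers fell, as did Foxa2 and Kdr, the only tested markers of endoderm and of lateral mesoderm. Over all tested genes 26.8% rose and 26.6% fell. The Ex4 library at 405 min scattered most around the fitted lines over all genes (SD 0.171 on the log2 scale, against 0.109 to 0.150 in the other 31 libraries).

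Over the hours of both courses the 44 genes rose about as often as they fell. A straight line was fitted to each gene in each experiment, and the trend is the mean of the 2 slopes, in log2 units per 100 min (edgeR quasi-likelihood test, Benjamini-Hochberg adjustment over all 11772 genes). By this test 14 of the 44 genes rose and 13 fell, where 26.8% of all tested genes rose and 26.6% fell, 53.3% in all. The counts by role given below stand beside these same shares, and no role was tested as a set. The median trend of the group was 0.008 and that of all tested genes was -0.002. The trend of 41 of the 44 genes (93.2%) was smaller than 0.1 in size, against 71.0% of all tested genes. So were the trends of 93.3% of the G1 and S phase genes and of 90.6% of the wider list of mitosis genes. Without the last Ex5 library, at 425 min, 8 genes fell in place of 13.

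Cdc25b rose most and was the exception in size. It had 4.40, 6.74 and 10.4 CPM in Ex5 (lowest, median and highest library) and 6.20, 8.89 and 12.8 CPM in Ex4. The lowest value was the first library and the highest the last in both experiments. Its slope was 0.419 ± 0.041 in Ex5 (log2 per 100 min ± SE, adjusted p = 1.37e-10) and 0.349 ± 0.039 in Ex4 (adjusted p = 1.17e-08), and the trend of 0.38 was the only one of the group above 0.2. Cdc25b lies at chr2:131186949-131198497 on the plus strand (GRCm38), and its RefSeq promoter held CCAAT but no TTTGAA.

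**Figure D2:**
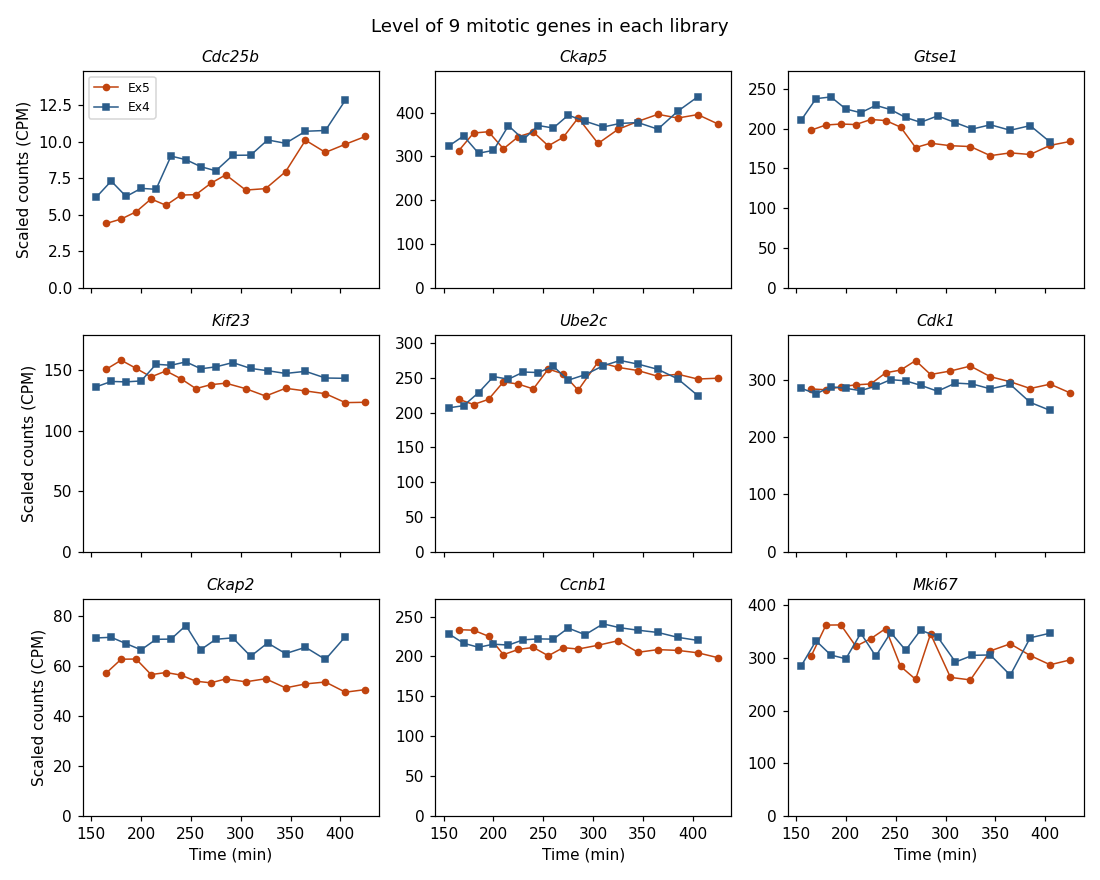
Level of 9 genes of the group in each library (y axis, TMM-scaled CPM on a linear scale from 0) against time in min, with Ex5 as orange circles and Ex4 as blue squares. Cdc25b climbs from its first to its last library in both courses, Gtse1 declines in both, Kif23 declines in Ex5 while Ex4 does not, and Cdk1 and Ube2c are highest in mid-course.

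The other kinases, cyclins and phosphatases had small trends. Of the 9 genes of this role, Cdc25b rose and Ccna2 (cyclin A2) and Plk1 fell. Ccnb1, cyclin B1, had 199, 209 and 234 CPM in Ex5 and 212, 223 and 241 CPM in Ex4, with a trend of -0.002 ± 0.013 (adjusted p = 0.894). Cdk1 had 277, 295 and 334 CPM in Ex5 and 247, 287 and 300 CPM in Ex4, with a trend of -0.023 ± 0.018 (adjusted p = 0.267). Plk1 had 271, 298 and 330 CPM in Ex5 and 260, 292 and 310 CPM in Ex4, and its trend of -0.039 ± 0.017 passed narrowly (adjusted p = 0.0482). That call was lost in 21 of the 32 fits that left out 1 library, with an adjusted p of up to 0.203. Aurka had 138, 147 and 159 CPM in Ex5 and 149, 154 and 164 CPM in Ex4, with a trend of -0.009 ± 0.011 (adjusted p = 0.511).

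Of the 6 genes of the spindle checkpoint and of anaphase 4 rose and 1 fell, where 26.8% of all tested genes rose and 26.6% fell, and the subgroup was not tested. The 4 were Bub1b, the checkpoint kinase-like protein BubR1, Ube2c, the ubiquitin-conjugating enzyme of the anaphase-promoting complex, Cdc20 and Pttg1, securin; Ttk, the checkpoint kinase Mps1, fell. Bub1b had 203, 246 and 262 CPM in Ex5 and 206, 248 and 262 CPM in Ex4, and was lowest in the first library of both courses (trend 0.094 ± 0.016, adjusted p = 3.92e-06). Ube2c had 212, 249 and 273 CPM in Ex5 and 207, 253 and 275 CPM in Ex4 (trend 0.076 ± 0.021, adjusted p = 0.00293). Cdc20 had 294, 331 and 361 CPM in Ex5 and 286, 350 and 372 CPM in Ex4 (trend 0.054 ± 0.019, adjusted p = 0.0140). Bub1, the kinase that places the checkpoint on kinetochores, had 122, 135 and 161 CPM in Ex5 and 126, 140 and 166 CPM in Ex4, and its trend of -0.042 ± 0.024 did not pass (adjusted p = 0.143). The fall of Ttk was lost in 9 fits that left out 1 library, with an adjusted p of up to 0.0745.

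Genes of the centromere and kinetochore were divided. Cenpa, the histone H3 variant that marks centromeres, and Cenpe, a kinetochore kinesin, rose, while Ndc80 and Nuf2, which form 1 microtubule-binding complex together, both fell. Cenpa had a trend of 0.091 ± 0.016 (adjusted p = 1.22e-05), Nuf2 one of -0.082 ± 0.020 (adjusted p = 0.000657) and Ndc80 one of -0.062 ± 0.020 (adjusted p = 0.0100). Cenpf, a large protein of the outer kinetochore, had 126, 159 and 181 CPM in Ex5 and 151, 179 and 217 CPM in Ex4 and did not pass (trend 0.036 ± 0.031, adjusted p = 0.327). The rise of Cenpe was lost in 6 fits that left out 1 library, with an adjusted p of up to 0.0965.

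In the chromosomal passenger complex, which corrects faulty microtubule attachments, Cdca8 (borealin) fell, with a call that 16 fits without 1 library did not keep, and neither Aurkb nor Birc5 passed. Aurkb, its kinase, had 123, 139 and 146 CPM in Ex5 and 127, 139 and 147 CPM in Ex4 (trend 0.020 ± 0.015, adjusted p = 0.246). Birc5, survivin, had 156, 180 and 193 CPM in Ex5 and 178, 197 and 204 CPM in Ex4 (trend 0.029 ± 0.014, adjusted p = 0.0899). Among the 5 kinesin motors, Kif4, a chromosome-bound motor, rose (0.078 ± 0.015, adjusted p = 5.40e-05), and Kif23, of the central spindle, and Kif11, which pushes the spindle poles apart, fell. Among the 3 genes of cytokinesis, Racgap1 rose and Anln (anillin) and Ect2 fell.

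Of the 8 spindle and microtubule proteins 4 rose and 3 fell, where 26.8% of all tested genes rose and 26.6% fell. The largest fall of the whole group was that of Gtse1. Ckap5, a microtubule polymerase, had 313, 356 and 396 CPM in Ex5 and 307, 369 and 436 CPM in Ex4 (trend 0.116 ± 0.019, adjusted p = 2.20e-06). Gtse1, a microtubule-associated protein of G2 and S phase cells, had 166, 183 and 212 CPM in Ex5 and 183, 212 and 240 CPM in Ex4 (trend -0.117 ± 0.017, adjusted p = 2.39e-07). Its lowest libraries were in the later part of both courses, and it was the only member that fell by test in Ex5 and in Ex4 alike, where 10.5% of all tested genes did. Tpx2, the activator of Aurka on the spindle, and Dlgap5, a spindle assembly factor, rose by little (0.051 for Tpx2, adjusted p = 0.00419, and 0.055 for Dlgap5, adjusted p = 9.28e-05). Ckap2, a microtubule stabiliser, fell by 0.066 ± 0.016 per 100 min (adjusted p = 0.000732). Cdca3, which triggers the breakdown of the Cdk1 inhibitor Wee1, had 106, 121 and 134 CPM in Ex5 and 115, 131 and 142 CPM in Ex4 and rose (trend 0.096 ± 0.015, adjusted p = 1.97e-06).

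None of the 4 genes of chromosome structure passed the test of the trend. Top2a, the topoisomerase that untangles sister chromatids, had the most counts of the group, 775, 833 and 914 CPM in Ex5 and 778, 830 and 906 CPM in Ex4, with a trend of -0.007 ± 0.016 (adjusted p = 0.727). Mki67, the proliferation marker that coats mitotic chromosomes, had 258, 309 and 363 CPM in Ex5 and 267, 310 and 353 CPM in Ex4, with a trend of -0.035 ± 0.031 (adjusted p = 0.342). Of the core of condensin, Smc2 had a trend of -0.033 ± 0.018 and Smc4 one of 0.015 ± 0.020. The ranges of these libraries overlapped between Ex5 and Ex4 for every one of the 4.

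Of the 27 genes with TTTGAA in the promoter, 8 rose and 10 fell, and of the 10 matched genes without it, 4 rose and 2 fell. Over all tested genes 26.8% rose and 26.6% fell. No test was made of that split.

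Taken one experiment at a time, the genes that passed went in both directions in Ex5 and upwards, but for 1, in Ex4. In Ex5, 11 genes rose and 14 fell, against 25.8% of all tested genes that rose and 25.3% that fell, 51.2% in all. In Ex4, 14 rose and 1 fell, against 16.9% of all tested genes that rose and 15.5% that fell, 32.5% in all. The median slope was -0.009 in Ex5 and 0.015 in Ex4. Of the 45 genes of G1 and S phase 10 rose and 9 fell in Ex5, and 3 rose and 20 fell in Ex4, and no test compared the 2 lists. In 31 genes (70.5%) both slopes had the same sign, as in 72.1% of all tested genes. Those that rose by test in both experiments numbered 9 of the 44, where 11.5% of all tested genes did: Cdc25b, Bub1b, Ube2c, Cenpa, Kif4, Ckap5, Dlgap5, Racgap1 and Cdca3. The Ex4 slope of Ube2c (0.076 ± 0.030, adjusted p = 0.0485) was lost in 21 of the 32 fits without 1 library, and that of Dlgap5 without the first Ex4 library only. Without that library, at 155 min, 9 genes rose in Ex4 in place of 14, and without the Ex5 library at 165, 195 or 425 min or the Ex4 library at 185 or 405 min 2 or 3 fell in Ex4 in place of 1. Without the last Ex5 library 8 fell in Ex5 in place of 14.

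**Figure D3:**
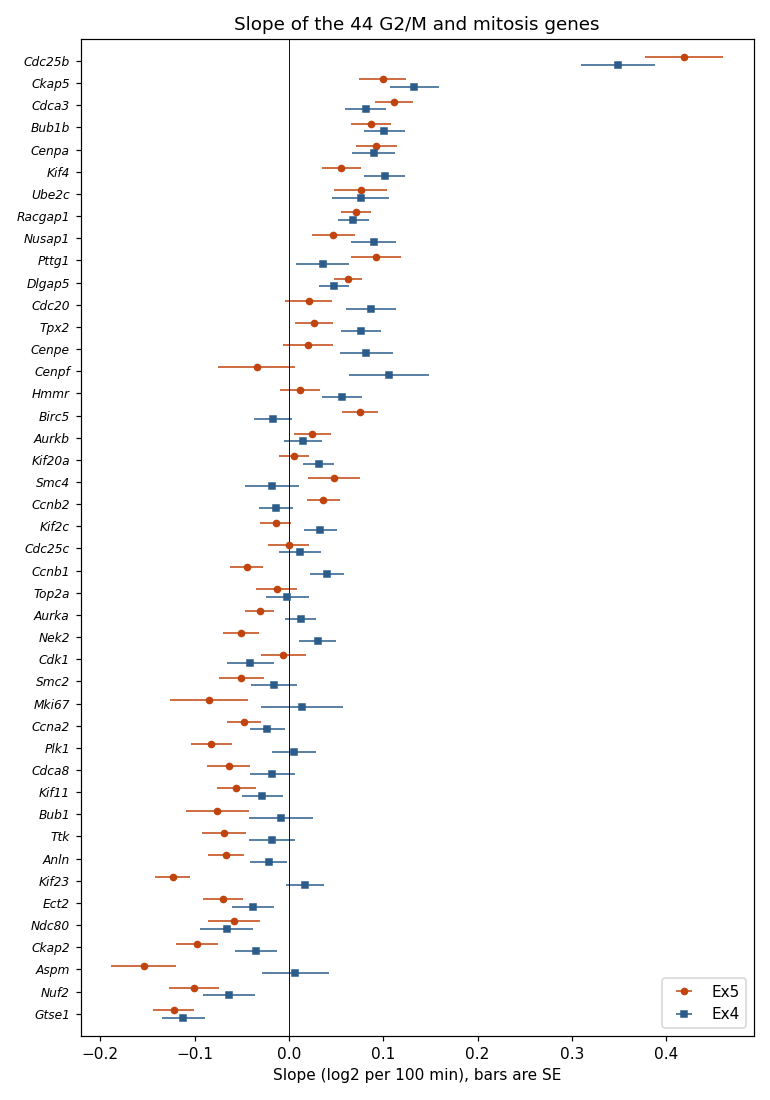
Slope of each of the 44 genes in Ex5 (orange circles) and Ex4 (blue squares), in log2 units per 100 min, with bars of 1 SE. Genes are ordered by the mean of the 2 slopes. Cdc25b stands alone on the right, Gtse1 is at the bottom, and Kif23, Aspm, Ccnb1, Nek2, Plk1 and Birc5 show the gaps between experiments that passed the test.

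The slopes differed between the experiments in 6 of the 44 genes. By the test of the difference itself 1 gene had the higher slope in Ex5 and 5 had the lower one, where 7.03% of all tested genes were higher and 9.06% lower, 16.1% in all, a share close to that of the group (13.6%). Kif23 showed the clearest difference: it had 123, 136 and 158 CPM in Ex5 and 136, 149 and 157 CPM in Ex4. Its slope was -0.123 ± 0.019 in Ex5 and 0.017 ± 0.020 in Ex4, a difference of -0.140 ± 0.026 (adjusted p = 0.000292). In Ex5 its first 3 libraries were the highest and its last 2 the lowest, and in Ex4 the first was the lowest. Ccnb1 sloped by -0.045 ± 0.017 in Ex5 and by 0.040 ± 0.018 in Ex4 (difference -0.085 ± 0.024, adjusted p = 0.0146). Birc5 sloped by 0.075 ± 0.019 in Ex5 and by -0.017 ± 0.020 in Ex4 (difference 0.093 ± 0.027, adjusted p = 0.0168). The other 3 were Aspm, a spindle pole protein, Nek2, a centrosomal kinase, and Plk1. The differences of Kif23 and Ccnb1 passed in every fit without 1 library. Those of Birc5 and Aspm were lost without the last Ex4 library (adjusted p = 0.0681 for Birc5 and 0.0617 for Aspm), that of Nek2 in 5 fits and that of Plk1 in 19. Without the Ex4 library at 170 min, the one at 385 min or the Ex5 library at 425 min, 3 genes were lower in place of 5.

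At the middle of the courses 22 of the 44 genes were lower in Ex5 than in Ex4 and 2 were higher, by small amounts. These counts are from the test at 285 min, where 27.7% of all tested genes were lower and 27.4% higher, 55.1% in all. The estimate was below 0 in 39 of the 44, and its median was -0.061 on the log2 scale, against -0.002 over all tested genes. The spindle and microtubule proteins were lower in 6 of 8 genes, the kinases, cyclins and phosphatases in 6 of 9, and the kinesins in 3 of 5. Fewer were lower in the other roles: 2 of 5 centromere and kinetochore genes, 1 of 6 checkpoint and anaphase genes, and 1 of 4 genes of chromosome structure. In the passenger complex 1 of 3 was lower, in cytokinesis 1 of 3, and Cdca3 was lower. No role was tested as a set. Of a wider list of 127 mitosis genes 54 were lower and 13 higher, and of the 45 genes of G1 and S phase 15 were lower and 6 higher. Of the 12 PSM markers 8 were higher in Ex5 by the same test, and 4 were lower: T (-0.23), Wnt3a (-0.33), Cdx2 (-0.15) and Fgf8 (-0.094). The epiblast markers Pou5f1 (-0.39) and Cdh1 (-0.48) were both lower in Ex5, with a summed median of 85.6 CPM in Ex5 and 122 CPM in Ex4 over the 5 epiblast markers. Of the 3 tested neural markers 2 were lower, Sox2 (-1.16) and Sox1 (-0.77). Kdr, of lateral mesoderm, was lower (-0.65), with medians of 1.16 CPM in Ex5 and 1.80 CPM in Ex4. The fibroblast markers Col1a2 (0.28) and Col1a1 (1.27) were higher, Col1a1 with medians of 3.60 CPM in Ex5 and 1.34 CPM in Ex4. Foxa2, of endoderm, did not pass. The part of these cell types in the level difference of the G2/M genes was not tested.

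Ckap2 differed with the smallest p. It had 49.5, 54.4 and 62.8 CPM in Ex5 and 62.6, 70.0 and 76.2 CPM in Ex4, a difference of -0.322 ± 0.023 (adjusted p = 9.83e-15), with ranges that met only at their edges. Kif20a, the kinesin that brings the passenger complex to the central spindle, was the only gene of the group whose ranges did not overlap, where those of 3.53% of all tested genes did not. It had 307, 317 and 335 CPM in Ex5 and 347, 363 and 394 CPM in Ex4 (difference -0.183 ± 0.017, adjusted p = 1.19e-11). Dlgap5 had 100.3, 112 and 122 CPM in Ex5 and 114, 125 and 133 CPM in Ex4 (difference -0.166 ± 0.016, adjusted p = 4.11e-11). Cdc25b differed by -0.354 ± 0.043 (adjusted p = 6.05e-09), Gtse1 by -0.166 ± 0.024 (adjusted p = 2.29e-07), Birc5 by -0.143 ± 0.021 (adjusted p = 2.74e-07) and Cenpf by -0.206 ± 0.044 (adjusted p = 0.000152). Ccnb1 (-0.090 ± 0.019, adjusted p = 0.000109) and Aurka (-0.063 ± 0.017, adjusted p = 0.00150) were lower by less.

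The 2 genes that were higher in Ex5 were Pttg1 and Cdk1. Pttg1 had 50.3, 57.5 and 65.4 CPM in Ex5 and 44.8, 51.4 and 56.6 CPM in Ex4 (difference 0.175 ± 0.029, adjusted p = 2.90e-06). Cdk1 differed by 0.087 ± 0.025 (adjusted p = 0.00385), while its partner Ccnb1 was lower in Ex5. Top2a (0.013 ± 0.024, adjusted p = 0.673), Mki67 (-0.032 ± 0.045, adjusted p = 0.570), Plk1 (0.034 ± 0.024, adjusted p = 0.227), Aurkb (-0.014 ± 0.021, adjusted p = 0.60) and Cdc20 (-0.059 ± 0.027, adjusted p = 0.0587) did not pass. The difference of Tpx2 (-0.051 ± 0.022, adjusted p = 0.0428) was lost in 16 fits without 1 library.

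**Figure D4:**
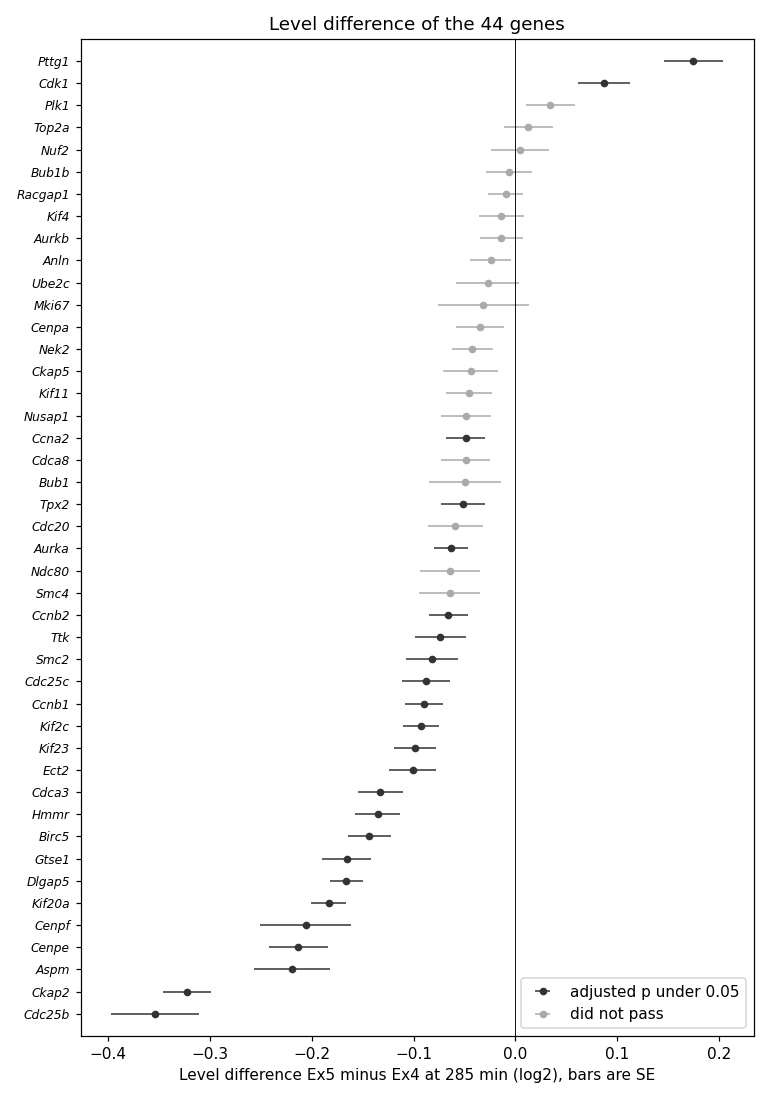
Difference in level between Ex5 and Ex4 at 285 min for each of the 44 genes (x axis, log2, Ex5 minus Ex4, bars of 1 SE), ordered from the highest to the lowest. Dark points passed at an adjusted p under 0.05 and grey points did not. All but 5 points lie left of 0, with Cdc25b and Ckap2 farthest left and Pttg1 farthest right.

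No gene of the group passed the test for a rhythm with the period of Hes7, at any shared phase relative to it. The fit held a cosine and a sine of the Hes7 phase, with a common period of 135 min (95% interval 130 to 141), and the test asked whether both were 0. It called 0 of the 44 genes by edgeR and by DESeq2, where 1.32% of all tested genes were called by edgeR. At an unadjusted p under 0.05 there was 1 gene, Aurkb (p = 0.0376, adjusted p = 0.349), 2.27% of the group against 13.0% of all tested genes. The fitted ratio of peak to trough lay between 1.01 and 1.09 over the group, which for Ccnb1 was 1.05 (adjusted p = 0.406) and for Bub1 1.09 (adjusted p = 0.416). Nor did the rhythm differ between experiments by test: 0 of the 44 genes and 0% of all genes were called, with 2 of the group (4.55%) and 5.47% of all tested genes at an unadjusted p under 0.05. With the period set to 180 min in place of 135 min, Ccnb1 alone was called (adjusted p = 0.0183). That period lies outside the interval fitted to Hes7, and the call is not set against the share of all tested genes at 180 min.

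The courses of 13 genes were bent, and in 12 of them the quadratic term of the fitted curve was below 0 in both experiments. A quadratic term per experiment passed its test in 13 of the 44 genes, against 20% of all tested genes. Genes called with both terms below 0, the sign of a downward bend, made up 27.3% of the 44, against 8.54% of all tested genes. Among called genes these were 12 of the 13 in the group and 1005 of 2359 over all tested genes. Genes called with both terms above 0 made up 0% of the 44, against 6.84% of all tested genes. Over the whole group, called or not, both terms were below 0 in 26 of 44 (59.1%), against 32.8% of all tested genes, and above 0 in 4.

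Tpx2 had the smallest p of this test. It had 265, 298 and 306 CPM in Ex5, lowest at 165 min and highest at 325 min, and 260, 306 and 323 CPM in Ex4, lowest at 155 min and highest at 327 min. Its quadratic term was -0.077 ± 0.018 in Ex5 and -0.113 ± 0.019 in Ex4 (log2 per 100 min squared, adjusted p = 1.01e-05). Ube2c, lowest at 180 min and highest at 305 min in Ex5, and lowest at 155 min and highest at 327 min in Ex4, had terms of -0.090 ± 0.025 in Ex5 and -0.172 ± 0.027 in Ex4 (adjusted p = 1.60e-05). Cdk1 was highest at 270 min in Ex5 and at 245 min in Ex4 and lowest in the last library of each, with terms of -0.120 ± 0.022 in Ex5 and -0.092 ± 0.023 in Ex4 (adjusted p = 4.19e-05). Cdc20 (adjusted p = 0.000513), Plk1 (adjusted p = 0.00193) and Birc5 (adjusted p = 0.00748) were also called with both terms below 0. So were Bub1b, Cdca8, Ccna2, Cdca3, Nusap1 and Cenpa, of which Cenpa was lost in 11 fits without 1 library. The test is of both terms together, and a single term can be small: that of Ccna2 was -0.026 ± 0.021 in Ex4, where its first and last libraries were not low. The Ex5 terms of Cdca3 (-0.034 ± 0.023) and Cenpa (-0.048 ± 0.026) were small too, and both genes were highest at 385 min in Ex5. Kif23 was called with terms of 0.019 ± 0.021 in Ex5 and -0.097 ± 0.022 in Ex4. Top2a (adjusted p = 0.453), Mki67 (adjusted p = 0.607), Cenpf (adjusted p = 0.254), Ccnb1 (adjusted p = 0.268) and Aurka (adjusted p = 0.726) did not pass. Without the first and last library of each experiment, a choice made after the data were seen, 10 genes were called, 8 of them with both terms below 0, and the share called over all tested genes fell to 8.64%.

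The deviations of the members from their own straight lines are given library by library. In the Ex5 library at 165 min 15.9% of the 44 genes were above their line, and in the Ex4 library at 275 min 84.1% were. For the 45 genes of G1 and S phase the lowest and the highest share of a library were 26.7% and 80.0%. The SD over the 32 libraries of the median deviation was 0.0318 on the log2 scale for the 44 G2/M genes and 0.0220 for the 45 G1/S genes. For the 127 genes of the wider mitosis list, with more genes in each median, it was 0.0164. The share of that list above the line lay between 28.3% and 67.7%. The share over all tested genes is held near its middle by the scaling to a common total and is no measure of what 44 genes would do, and no test was made of these values. In each Ex4 library from 215 to 292 min, 61.4% or more of the G2/M genes and 42.2% or fewer of the G1/S genes were above their lines. In Ex5 both lists were high at 270 and 285 min.

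The deviations were also divided by exon length. For the 37 genes with under 8000 bases of exons the median deviation was low at both ends of both courses. It was -0.056 at 165 min and -0.049 at 425 min in Ex5, and -0.037 at 155 min and -0.076 at 405 min in Ex4. Between the ends it reached 0.040 at 245 min in Ex4. In Ex5 it was uneven, with 0.031 at 240 min, -0.013 at 255 min, 0.051 at 270 min and -0.019 at 345 min. Low ends around a straight line restate the quadratic terms below 0 and are no separate result. For the 7 genes with 8000 bases or more (Cenpe, Top2a, Anln, Ckap5, Mki67, Aspm and Cenpf) it jumped from library to library, with an SD of 0.0787, against 0.0309 for the shorter genes, of which there are more in each median. All 7 were above their lines in the Ex5 library at 285 min and all 7 below in that at 305 min. The 2317 tested genes of the same exon length moved the same way in most libraries. Their share above the line went from 25.4% in the Ex4 library at 365 min to 71.9% in the Ex5 library at 195 min. In the Ex5 library at 165 min the 2 sets parted: 0 of the 7 were above their lines, with a median of -0.116, against 50.8% of all long tested genes. The medians also differed in sign at 225 and 425 min in Ex5 and at 155, 260 and 292 min in Ex4. None of the 7 long genes and 13 of the 37 shorter ones (35.1%) were called as bent, where 22.3% of all long tested genes and 19.5% of the shorter ones were. The length limit was chosen after the data were seen, and the part of RNA length or quality in these values was not tested.

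**Figure D5:**
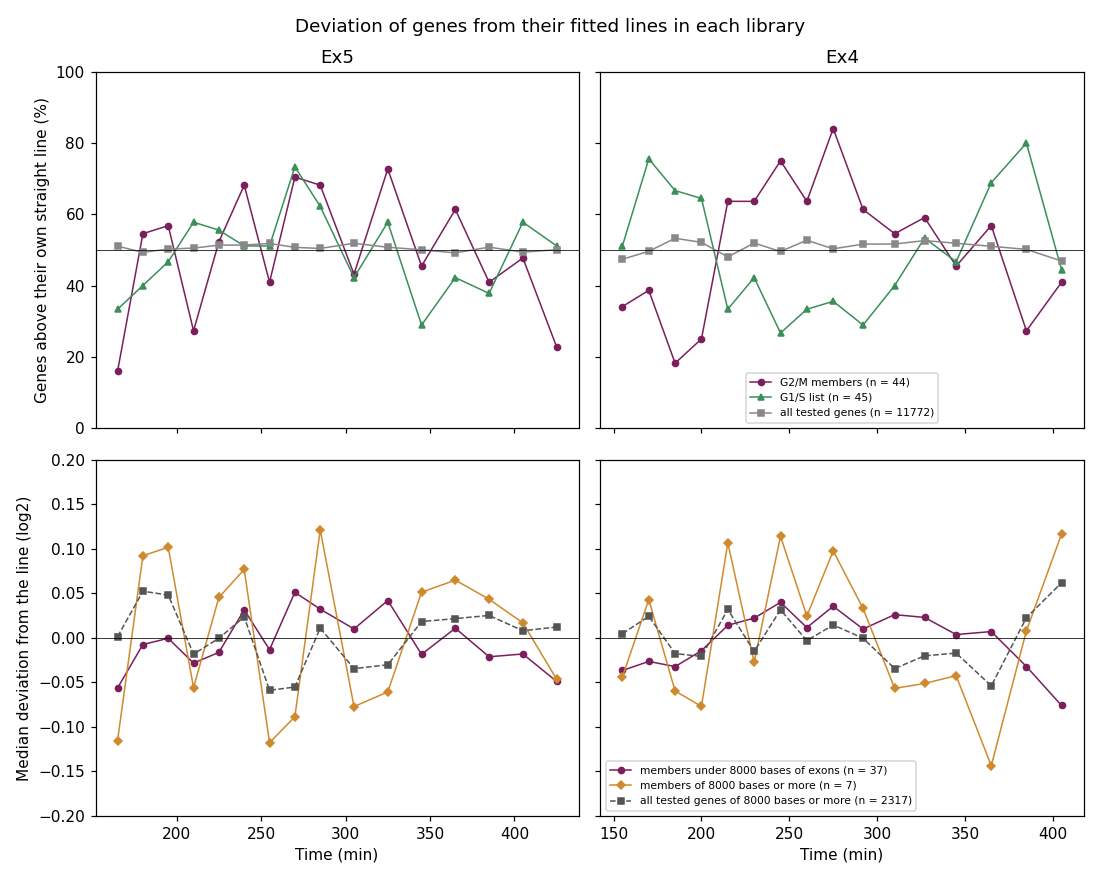
Deviation from the fitted straight line in each library, in Ex5 (left) and Ex4 (right), against time in min. The upper row gives the percent of genes above their own line for the 44 G2/M genes, the 45 G1/S genes and all 11772 tested genes, and the lower row the median deviation in log2 for G2/M genes under 8000 bases of exons, those of 8000 bases or more, and all tested genes of 8000 bases or more. The G2/M share ranges from 15.9% to 84.1% and the G1/S share from 26.7% to 80.0%. The long G2/M genes move with long genes in general in most libraries, but not in the Ex5 library at 165 min.

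Aspm, 1 of the genes whose slopes differed, has 11590 bases of exons. It had 61.3, 69.0 and 95.2 CPM in Ex5 and 75.5, 83.0 and 96.8 CPM in Ex4. Its slope was -0.154 ± 0.035 in Ex5 and 0.007 ± 0.035 in Ex4, a difference of -0.161 ± 0.047 (adjusted p = 0.0176). Among all tested genes of 8000 bases or more the median difference in slope was -0.033, with 338 of 2317 lower in Ex5 and 66 higher, against a median of 0.010 among shorter genes. Kif23, with 7901 bases, stands just under the limit.

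A wider list of mitosis genes, holding regulators, kinetochore, cohesin, condensin and augmin subunits and subunits of the anaphase-promoting complex, gave the surroundings of the 44. All 127 of its genes found in the table were tested, and 27 rose and 45 fell, with a median trend of -0.028. Over all tested genes 26.8% rose and 26.6% fell. Among the genes that fell were Haus3, an augmin subunit (-0.16), and Cenpi, of the inner kinetochore (-0.14). The largest rises were those of Haus5, also of augmin (0.16), Anapc2, the cullin of the anaphase-promoting complex (0.13), and Pimreg (0.13). Both quadratic terms were below 0 in 40.9% of the 127. Of the G1/S list 7 of 45 genes rose and 16 fell. The largest falls were those of Ccne2 (-0.21) and Ccne1 (-0.13), the E cyclins, and of Hells, a chromatin remodeller (-0.18), and the largest rises those of Gins2, of the replicative helicase (0.098), E2f1 (0.082) and Pold1, a DNA polymerase subunit (0.069). Both quadratic terms were below 0 in 26.7% of the G1/S genes.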

How the data were processed

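Total RNA (200 ng) from 32 dishes was sequenced as poly(A)-selected, stranded libraries, per the labels' protocols. The authors deposited raw counts per gene for all libraries in 1 table; per the submitters' processing notes the build was mm10 and the tools were HTSeq 0.6.1, HISAT2 2.1.0, cutadapt 1.14 and bcl2fastq 2.17.1.14. No source used here gives the annotation or the strand setting, so overlapping or antisense genes may share reads. Groups (Ex5, Ex4) and times came from the sample labels.

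Genes with at least 1 CPM in 16 libraries were kept (11772 of 21886). Counts were tested with edgeR 4.0.16 (R 4.3.3), TMM scaling and quasi-likelihood F tests, in 1 model over 32 libraries: intercept and slope per experiment, with time centred at 285 min, and a shared cosine and sine of the Hes7 phase. P-values were adjusted by Benjamini-Hochberg over all tested genes, with a threshold of 0.05. Deviations were taken from log2 CPM (prior count 0.5) around straight lines. No 2 libraries held identical values. The test was checked on simulated counts.

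Alternatives were DESeq2 1.42.0, other scalings, filters, periods and time terms, a replicate block, and leaving out each library. Genes named in full were 10 fixed by name, the 3 with the smallest p per test and the highest and lowest per kb; others were named because they were few or stood out, after their values were seen. The 44 genes and all lists were chosen with earlier results of these data known. Nothing says that the dishes came from separate cultures, so p-values measure the spread between these libraries, which may be technical. The values of 1 gene of the wider mitosis list are not reported here.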

Additional observations from a re-analysis of the deposited data

Results flagged for a closer look

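In 6 genes the slope over time differed between the experiments by the test of the difference itself (edgeR quasi-likelihood test, log2 per 100 min, Ex5 minus Ex4). That is 13.6% of the 44, against 16.1% of all tested genes. Kif23 declined in Ex5 and not in Ex4, with a difference of -0.14 (adjusted p = 0.000292). Aspm differed by -0.16 (adjusted p = 0.0176), Ccnb1 by -0.0849 (adjusted p = 0.0146), Nek2 by -0.0809 (adjusted p = 0.0300) and Plk1 by -0.0873 (adjusted p = 0.0482). Birc5 differed the other way, by 0.0925 (adjusted p = 0.0168). Ex5 ran from 165 to 425 min and Ex4 from 155 to 405 min, and over the shared times of 165 to 405 min the difference of Plk1 no longer passed.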

How the results depend on the processing

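Scaling by DESeq2 size factors or testing with DESeq2 kept every count within 1.5 times of the value given above, and no result reversed under any alternative. With Ex4 fitted alone 3 genes fell in Ex4 in place of 1, and without the first and last library of each experiment 2 did. Over shared times only, 2 slopes were higher in Ex5 in place of 1, and without the first and last libraries 0 were. With the period set to 180 min, outside the interval fitted to Hes7, 1 gene was called rhythmic in place of 0.

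Leaving out each library in turn gave 13 to 15 rising and 8 to 14 falling trends, 9 to 14 rising and 8 to 17 falling slopes in Ex5, and 9 to 16 rising and 1 to 3 falling slopes in Ex4. It gave 1 to 2 slopes higher and 3 to 6 lower in Ex5, 2 levels higher and 20 to 26 lower in Ex5, 0 rhythmic genes and 12 to 15 bent courses, 11 to 14 of them with both quadratic terms below 0. The median trend was 0.00226 to 0.0104 and the median level difference -0.0685 to -0.0510. The libraries that moved a count by over 1.5 times were the Ex5 ones at 165, 195 and 425 min and the Ex4 ones at 155, 170, 185, 385 and 405 min. Of the calls, 21 of 27 trends, 17 of 25 Ex5 slopes, 10 of 15 Ex4 slopes, 2 of 6 slope differences, 22 of 24 level differences and 12 of 13 bent courses passed in every such fit.

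The main model did not pair libraries by time-point number. Same-numbered deviations from the straight lines correlated above 0.1 in 6 of 16 pairs (-0.143 to 0.282), and 3 of 16 libraries correlated best with their own number. Deviations from the mean of each experiment, which keep the drift over time, correlated above 0.1 in 14 of 16 pairs (lowest 0.0473). Shared handling of same-numbered libraries was not tested. With the replicate block 1 slope was higher and 5 lower in Ex5, 2 levels were higher and 24 lower, and the median level difference was -0.0575. Depth limited Cdc25b most, with a mean of 152 counts per library in Ex5 and 206 in Ex4.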
